A study of Xenopus tropicalis with 26 samples.

Results

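Untreated *Xenopus tropicalis* embryos were compared at the end of the time course, at 5, 5.5 and 6 h after stage 8 (UIC_11, UIC_12 and UIC_13), with the same course at 3.5, 4 and 4.5 h (UIC_8, UIC_9 and UIC_10). These are 6 of the 26 samples of the series, and they were chosen by time and treatment alone. The study followed gene expression by RNA-seq in whole embryos, collected every 30 min from stage 8, a blastula stage, to stage 13 according to the labels. It asked how depolarization of the membrane potential alters early development, and it therefore sampled 1 course of control embryos and 1 course of embryos in high K+ medium. Control embryos were kept in dilute Ringer solution (1/9x MR) at 25 °C with no other treatment, and the high K+ embryos in a solution of 10 mM KCl at the same temperature. No line, transgene or mutation separates the groups. Each sample pooled 10 whole embryos, so tissues were not separated.

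At these hours the *Xenopus* embryo completes gastrulation, the set of movements that brings mesoderm and endoderm inside and leaves ectoderm outside. Early zygotic regulators that set up the germ layers give way to genes of the neural plate, the epidermis, the somites and the blood and heart fields, while Hox genes come on in an order that follows the body axis. RNAs laid down in the oocyte are cleared over the same period.

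The values are transcript abundances (TPM) corrected by the authors for nucleotide content, and they no longer have a common total. The totals of these 6 samples ran from 28010000 to 59580000, and the largest single record held 42.7 to 69.2% of each. Differences are given as the mean of log2(abundance + 1) at 5 to 6 h minus the mean at 3.5 to 4.5 h, with the standard error (SE) from limma, and folds on the same scale, which understate the change of genes of low abundance. A gene was called at a Benjamini-Hochberg adjusted p under 0.05 over all 15514 genes tested. The 3 neighbouring time points of a window stand in for replicates (n = 3 in each window). They come from 1 course, a gene that moves steadily has a large spread within each window, and the p-values measure the spread along that course only. An exact permutation test of 1 gene could not go below p = 0.10 with 3 against 3. In pools of whole embryos, fewer cells of a type and less of an RNA per cell cannot be told apart.

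The genes that rose included *rax* and *pax6* of the eye field, *hand1* of the lateral plate, *actc1* of muscle and Hox genes such as *hoxc6*. The genes that fell included *mixer* and *mix1* of the mesendoderm, *nodal2* and *gdf1* of the Nodal pathway and *wee2* of the oocyte. Of the 15514 genes tested, 693 rose (4.47%) and 2475 fell (16.0%). The median difference of the genes that rose was 1.43 on the log2 scale, and 162 of them rose by at least 2. The median difference of the genes that fell was -1.06, and 61 of them had a difference of -2 or below. The samples of the windows did not overlap for 6984 genes (45.0%).

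The balance of these counts changed with the scaling of the samples. The median difference of all tested genes was -0.35, so most genes were listed lower in the later window and only 28.5% had a difference above 0. In the deposited values 21.9% of the called genes were higher. With the samples scaled to a median ratio of 1 this share was 72.5% (829 higher and 314 lower), with the spike-in RNAs set to 1 level it was 66.8% (459 and 228), and with the total over genes under 10000 made equal it was 41.9% (641 and 889). The mean spike-in level differed by -0.09 on the log2 scale between the windows, but it varied more within them. It was 0.28, 0.40 and -0.22 at 3.5, 4 and 4.5 h, and -0.23, 0.06 and 0.36 at 5, 5.5 and 6 h. Spike-in scaling shifts every gene of a sample by that amount. Called in the same direction in the deposited values and in the median-ratio and spike-in scalings were 339 higher genes (2.19%) and 138 lower genes (0.890%). Such genes are termed stable to scaling. The gene lists share members, such as *dkk1* and *vegt*.

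The counts also depended on single samples. Of the 3168 called genes, 3159 had an adjusted p above 0.03. Without the 3.5 h sample 6 genes were higher and 6 lower, without the 4 h sample 4 and 7, without the 5.5 h sample 2 and 5, and without the 6 h sample 4 and 6. Without the 4.5 h sample they were 312 and 240, and without the 5 h sample 962 and 4001. Of the 141 called genes that were picked by rule, 7 stayed called without the 3.5 h sample, 5 without the 4 h sample and 55 without the 4.5 h sample. Without the 5 h sample 138 stayed called, without the 5.5 h sample 4 and without the 6 h sample 4. Further list members described below were not in this count. All 141 kept their direction in every alternative that was run, which was largely fixed in advance. Where the windows do not overlap, no left-out sample, pseudocount, filter, trend or fold minimum can reverse a gene. Only 8 of all called genes had windows that overlapped. The plot of called genes by setting shows these counts.

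**Figure D1:**
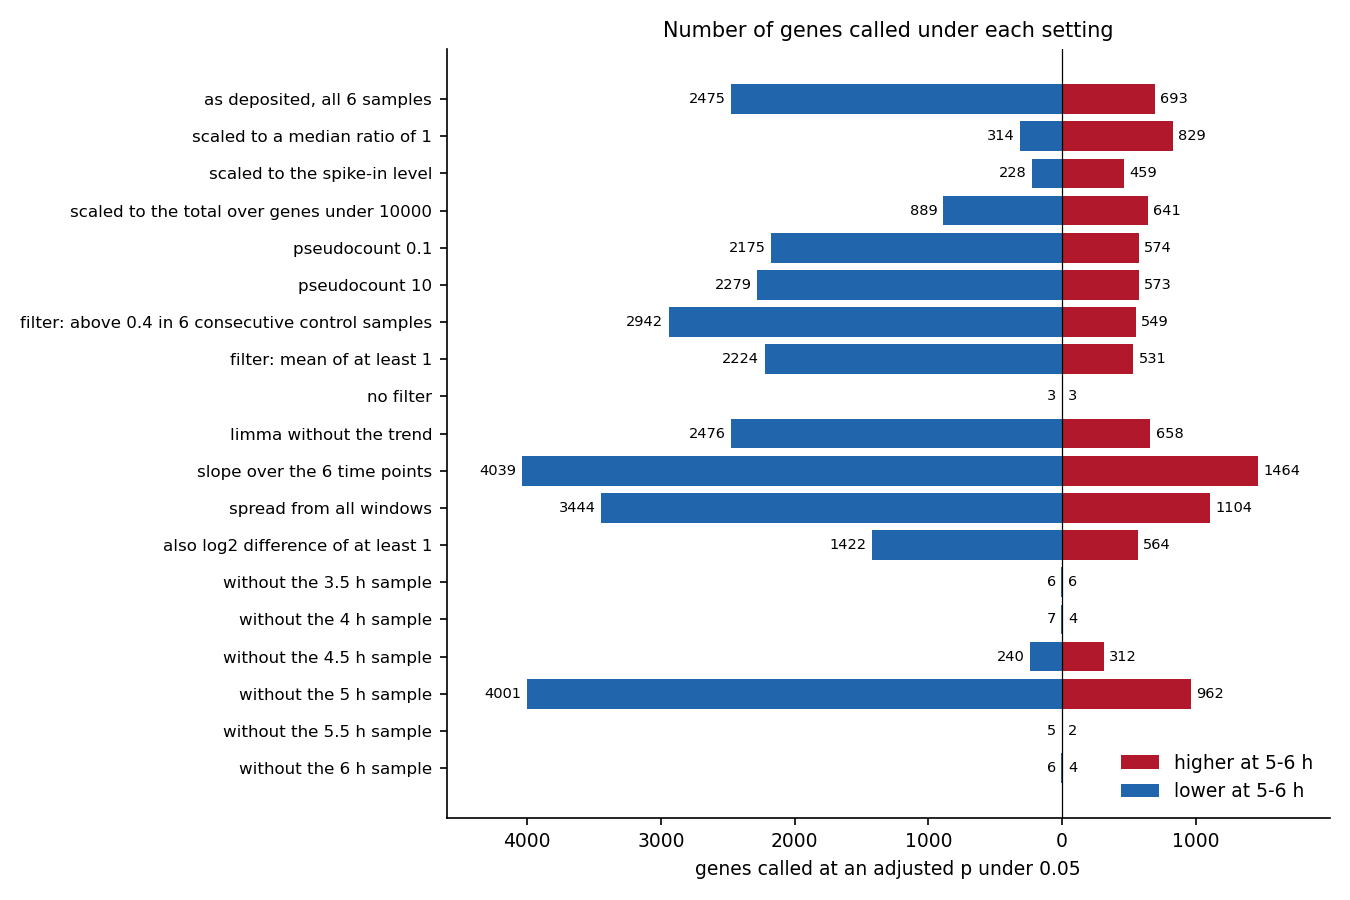
Number of genes called higher (red, to the right) and lower (blue, to the left) at 5 to 6 h under each setting, with the counts printed beside the bars. The deposited values with all 6 samples give 693 and 2475, and leaving out the 3.5, 4, 5.5 or 6 h sample leaves fewer than 10 genes in each direction.

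**Figure D2:**
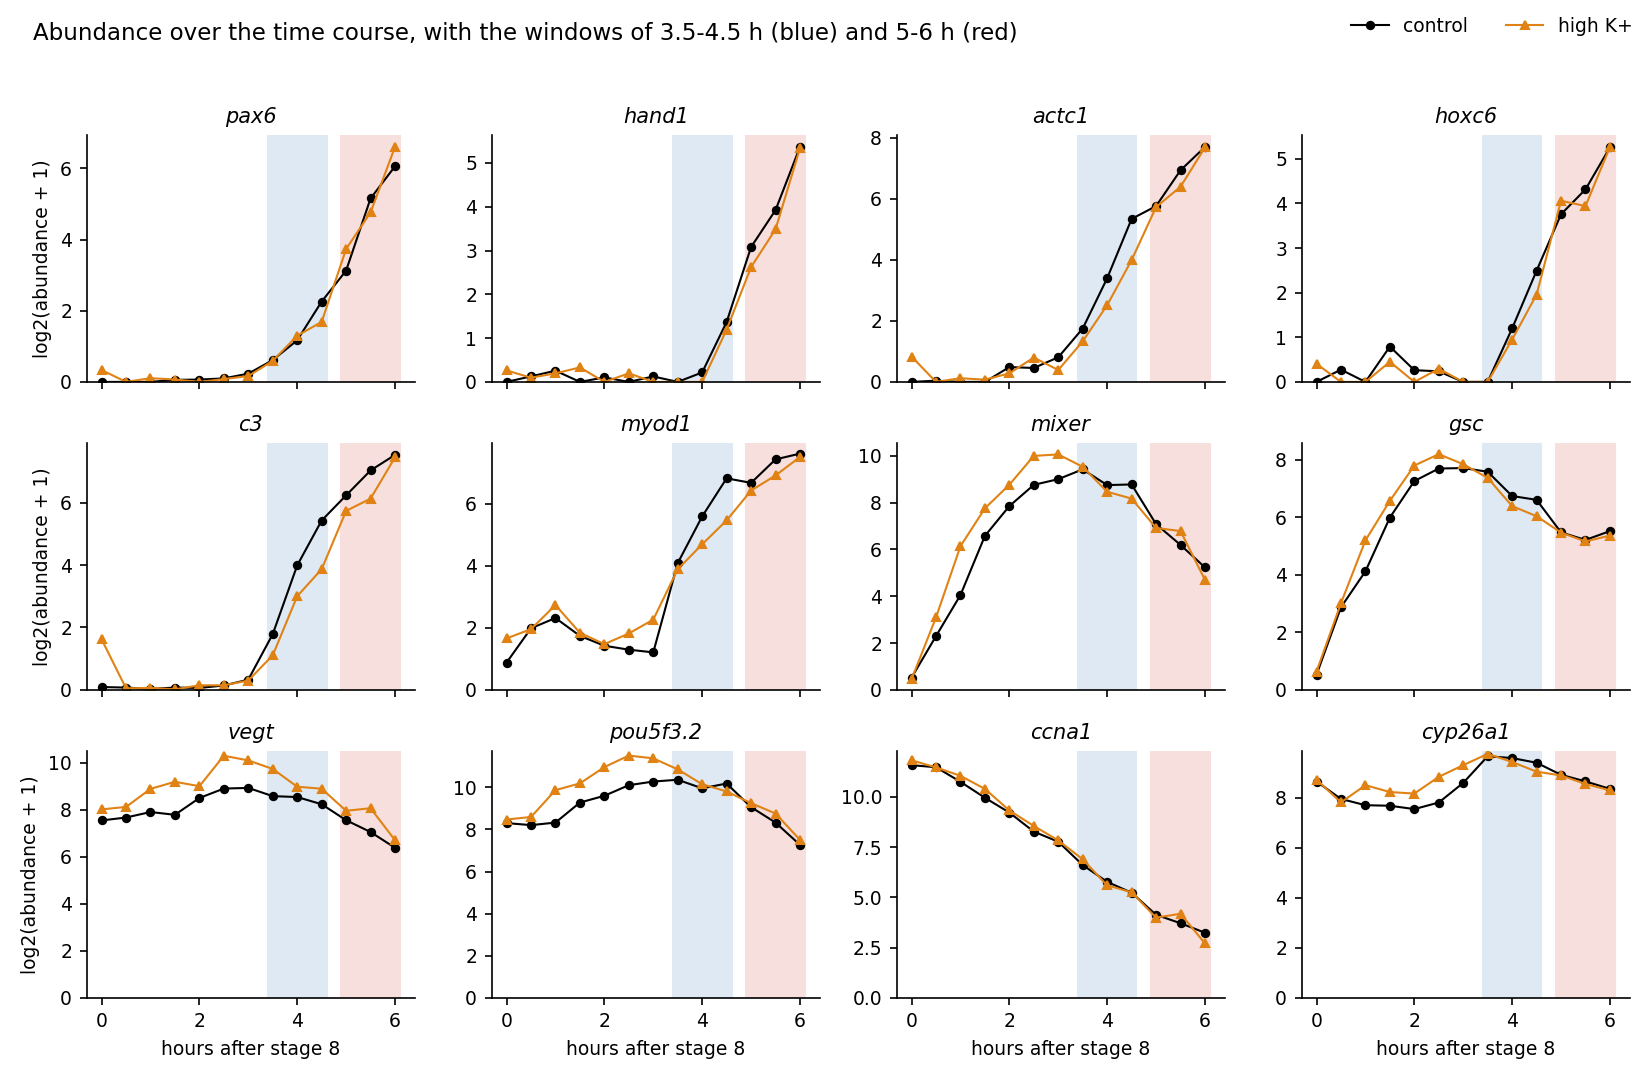
Abundance, as log2(abundance + 1), of 12 genes against hours after stage 8 in control embryos (black) and high K+ embryos (orange), with 1 point for each sample. The blue band marks 3.5 to 4.5 h and the red band 5 to 6 h: *pax6*, *hand1*, *actc1*, *hoxc6* and *c3* climb through both bands, while *mixer*, *gsc*, *vegt*, *pou5f3.2* and *ccna1* are lower in the red band than in the blue.

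Hox genes encode the homeodomain factors that give cells their position along the head to tail axis, Cdx factors regulate Hox genes in the posterior of the embryo, and Meis and Pbx proteins bind DNA together with Hox proteins. This list had the highest median of the 25 gene lists examined. Of 34 members tested, 19 rose and 0 fell, where 4.47% of all tested genes rose and 16.0% fell. The median difference was 1.39 against -0.35 over all tested genes. The median was 1.34 with spike-in scaling and 1.88 with a median ratio of 1, and 13 members were stable to scaling. Their highest value in the whole control course came at 5 to 6 h for 29 of the 34, against 2723 of the 15514 tested genes. The same samples also decided which members were called.

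*hoxc6* was listed at 0, 1.295 and 4.62 at 3.5, 4 and 4.5 h and at 12.5, 18.9 and 37.2 at 5, 5.5 and 6 h. *hoxb8* was listed at 0.609, 3.36 and 5.83 and then at 15.3, 33.6 and 61.0, in the same order of hours. *hoxb7* went from 0.221, 0.263 and 2.70 to 5.96, 14.6 and 22.6. For these genes of the trunk every later sample was above every earlier one, and the value grew at each time point. *hoxc6* rose 9.27-fold (log2 difference 3.21 ± 0.62 SE, limma adjusted p = 0.0314), *hoxb8* 9.00-fold (3.17 ± 0.61, adjusted p = 0.0314) and *hoxb7* 7.67-fold (2.94 ± 0.55, adjusted p = 0.0314).

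The Hox genes are given here by paralogue group, the number in the gene name, which runs from the head end of the expressed axis at 1 to the tail. Of group 1, *hoxb1* and *hoxd1* were not called, with differences of 1.22 and 0.20. From 2-3 h to 3.5-4.5 h, the step before, their differences were 4.098 and 3.23. Of the 7 genes of groups 2 to 4, 4 rose, namely *hoxb2*, *hoxa3*, *hoxd3* and *hoxc4*, with a median difference of 1.44 in the group. Of the 15 genes of groups 5 to 11, 13 rose and only *hoxb5* and *hoxd9* were not called. Their median difference was 1.70, and their differences in the step before lay between 0.25 and 1.75. Those of groups 2 to 4 lay between 0.02 and 2.87 in the step before, a range that took in that of groups 5 to 11. Past group 1 the preceding step thus did not separate the groups. The steps share the 3.5 to 4.5 h samples, and the groups were not tested against each other.

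*hoxd1* and *hoxb1*, at the head end of the list, were at 4.5 h already at about their 6 h level. *hoxd1* was listed at 200.1, 274 and 316 and then at 301, 271 and 321 (log2 difference 0.20, adjusted p = 0.489). *hoxb1* was listed at 8.76, 20.4 and 41.6 and then at 45.1, 53.3 and 43.9 (1.22, adjusted p = 0.085). The most posterior members tested were still low at the end of the course, but a low level was not particular to them. At 6 h *hoxa3* was listed at 4.38 and *hoxd3* at 4.74. *hoxc10* went from 0, 0.120 and 0.805 to 2.13, 4.92 and 8.83 (2.17 ± 0.42 SE, adjusted p = 0.0314), and *hoxa11* from 0, 0.0560 and 0.609 to 1.21, 2.05 and 3.97 (1.43, adjusted p = 0.0329).

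The symbol *hoxc9* stands on 2 records, and reads could be divided between them, so their levels are uncertain. The first (gene2590) was listed at 0, 0.523 and 2.60 and then at 3.01, 4.05 and 8.21 (log2 difference 1.70, adjusted p = 0.0451). The other (gene27488) was listed at 0 in each 3.5 to 4.5 h sample and at 5.303, 5.34 and 3.72 in the later samples. Among the regulators and partners, *cdx4* rose from 71.0, 84.8 and 88.1 to 162, 104 and 190.2 (0.86, adjusted p = 0.0458) and *meis1* from 0.923, 1.37 and 3.52 to 5.17, 8.84 and 14.4 (1.83, adjusted p = 0.0331). *cdx1*, *cdx2*, *meis2*, *meis3*, *pbx2* and *pbx3* were not called, with differences from -0.45 to 0.96.

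**Figure D3:**
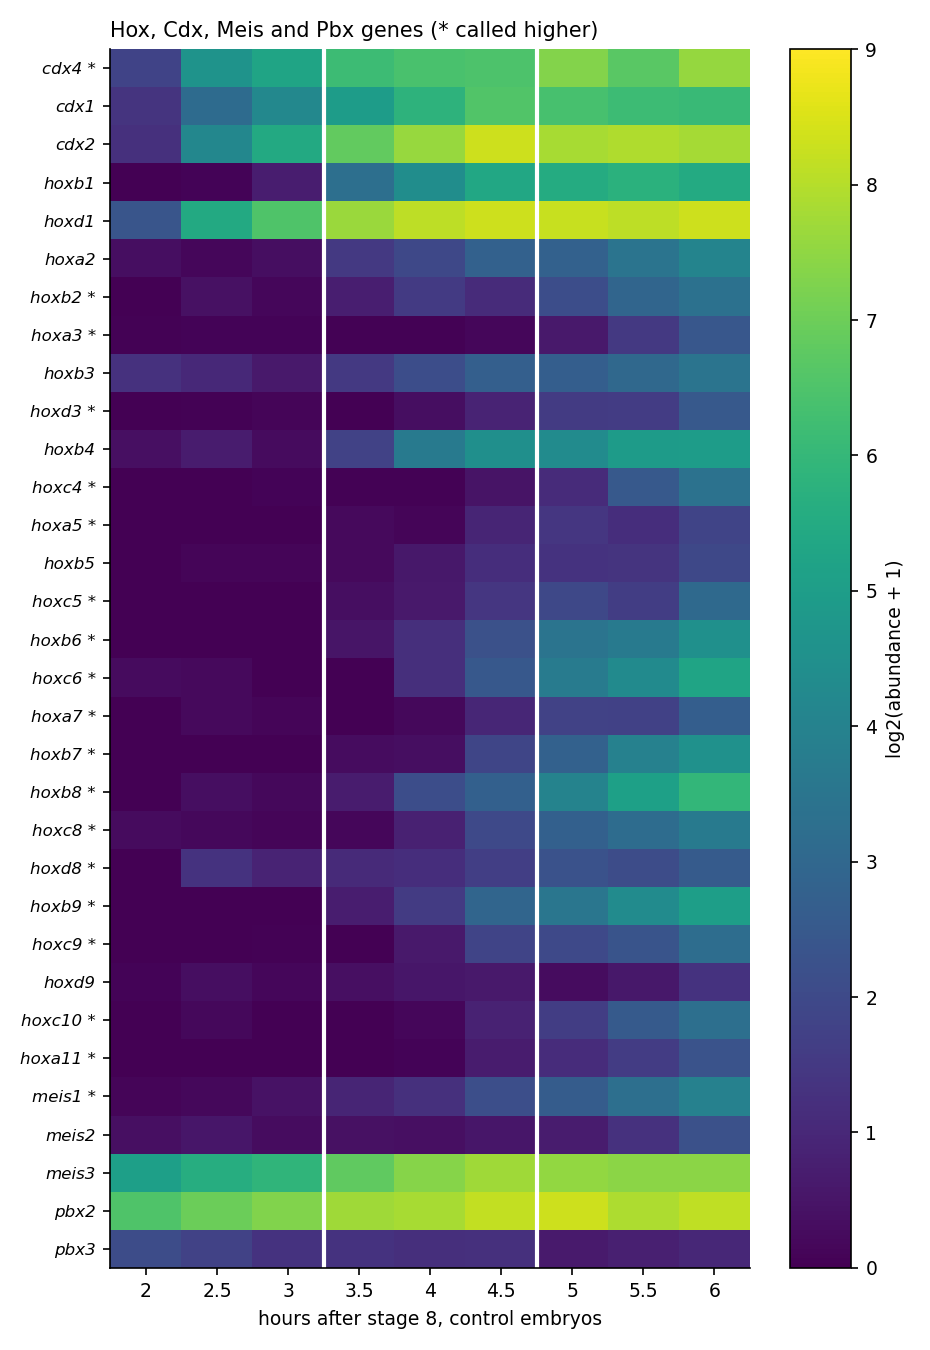
Abundance of 32 Hox, Cdx, Meis and Pbx genes (rows) in control embryos from 2 to 6 h after stage 8 (columns), as log2(abundance + 1) on the colour scale. The white lines separate the windows, an asterisk marks the 19 genes called higher at 5 to 6 h, and the group 1 genes *hoxb1* and *hoxd1* are about as bright at 4.5 h as at 6 h while *hoxc10* and *hoxa11* are darker at 4.5 h.

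Of 45 neural plate genes tested 12 rose, 2 fell and 31 were not called, where 4.47% of all tested genes rose and 16.0% fell. The median difference was 0.21 against -0.35 over all tested genes, and 5 of the risen genes were stable to scaling. *pax6*, a paired and homeodomain factor of the eye and brain, was listed at 0.530, 1.25 and 3.78 and then at 7.74, 34.6 and 65.7. *rax*, a homeodomain factor of the eye field, was listed at 0.830, 1.24 and 3.53 and then at 5.32, 53.2 and 130.3. Both were at their highest at 6 h, and on the log2 scale their largest step lay between 5 and 5.5 h. *pax6* rose 10.8-fold (log2 difference 3.43 ± 0.71 SE, limma adjusted p = 0.0314) and *rax* 13.4-fold (3.75 ± 0.95, adjusted p = 0.0367), although *rax* missed the threshold with a median ratio of 1 (adjusted p = 0.0528).

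Other forebrain factors that rose had smaller differences. *six3* went from 1.39, 4.63 and 16.0 to 20.1, 48.8 and 56.3 (log2 difference 2.68, adjusted p = 0.0361). *hesx1*, a homeodomain repressor of the anterior neural plate, was already abundant and went from 90.5, 168 and 245 to 334, 587 and 622 (1.67, adjusted p = 0.0322). *lhx2*, a LIM-homeodomain factor, went from 0.0436, 0.0849 and 0.341 to 0.887, 4.203 and 12.2 (2.14, adjusted p = 0.0415). *fezf2* rose by 2.23 (adjusted p = 0.0489). *olig2*, *olig3* and *dbx1*, which mark progenitor domains of the neural tube, rose by 2.23, 1.33 and 1.16 on the log2 scale (adjusted p = 0.0345, 0.041 and 0.0439).

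The pan-neural SoxB1 genes were not called. *sox2* was listed at 670.1, 697 and 792 and then at 725, 598 and 633 (log2 difference -0.14, adjusted p = 0.539), so its windows overlapped. *sox3* was listed at 464, 449 and 437 and then at 341, 332 and 285 (-0.50, adjusted p = 0.0604). *otx2*, a head factor, had a single high value of 592 at 4.5 h and lay between 290.3 and 349 in the 5 other samples (-0.29, adjusted p = 0.419). Of the neuronal markers, *ncam1*, a neural adhesion molecule, rose by 1.28 (adjusted p = 0.0345), *tubb2b*, a neuronal tubulin, by 1.25 (adjusted p = 0.0455), while the proneural *neurog2* (-0.45, adjusted p = 0.117) and *elavl3* (0.66, adjusted p = 0.0803) were not called. The members that fell were *irx2* (-0.78, adjusted p = 0.0466) and *en2* (-0.61, adjusted p = 0.0429), the latter listed under 1 in all 6 samples.

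At the border of the neural plate, where the neural crest forms, 2 of 25 members rose and 1 fell, where 4.47% of all tested genes rose and 16.0% fell, and the median difference was 0.39. *snai2*, a zinc-finger repressor and an early crest marker, went from 0.644, 2.52 and 4.57 to 6.97, 12.0 and 23.1 (log2 difference 2.09 ± 0.52 SE, limma adjusted p = 0.0359). The complement gene *c3*, which acts in the migration of the *Xenopus* neural crest, went from 2.45, 14.9 and 42.0 to 74.2, 129.7 and 184 (3.197 ± 0.79, adjusted p = 0.0355). Both were stable to scaling. *foxd3*, a forkhead factor of the crest that is also active in the early mesoderm of *Xenopus*, moved the other way, from 101, 78.8 and 106 to 61.1, 37.0 and 35.3 (-1.11 ± 0.26, adjusted p = 0.0331). The border specifiers *pax3* (1.11, adjusted p = 0.152), *msx1* (0.77, adjusted p = 0.0908) and *tfap2a* (-0.45, adjusted p = 0.138) were not called. *sox10* was not among the tested genes, and *sox9* was listed at 3.09, 4.35 and 9.86 in the later window (0.91, adjusted p = 0.0989).

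In the epidermal list 7 of 34 members rose and 6 fell, where 4.47% of all tested genes rose and 16.0% fell, so the share that fell was near that of all genes. The median difference was 0.33, and 4 risen and 1 fallen member were stable to scaling. The genes that rose included structural genes. The keratin listed as *krt* went from 1482, 2899 and 3122 to 4744, 4628 and 6728 (log2 difference 1.15 ± 0.31 SE, limma adjusted p = 0.0398), and *krt19* from 6.39, 43.6 and 110.7 to 157, 257 and 317 (2.82 ± 0.83, adjusted p = 0.0469). *dsp*, the desmosomal plakin, rose by 0.79 (adjusted p = 0.0361) and *ovol1*, a zinc-finger factor of epithelia, by 1.32 (adjusted p = 0.0314).

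The list holds regulators of multiciliated skin cells. *mcidas*, which drives the multiciliated programme, went from 15.4, 45.2 and 59.3 to 93.5, 109.6 and 121 (log2 difference 1.60, adjusted p = 0.0405). *gmnc*, its relative that acts above it in that programme, went from 24.8, 15.9 and 7.26 to 2.18, 1.05 and 0.707 (-2.78 ± 0.44 SE, adjusted p = 0.0314). It had the largest fall in the list. Their downstream factor *foxj1* reached 223 at 4.5 h and was listed at 118, 91.5 and 68.3 afterwards (-0.47, adjusted p = 0.361). The study stained *foxj1* as a marker of superficial dorsal mesoderm, so in whole embryos its level cannot be assigned to skin.

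The other members that fell are given by their values. *foxi4.2*, the early ectodermal forkhead factor, went from 607, 608 and 794 to 412, 312 and 168 (log2 difference -1.25, adjusted p = 0.0362), and *cldn6.1*, a tight-junction protein, from 2424, 1931 and 1148 to 914, 852 and 671 (-1.12, adjusted p = 0.0363). *klf17* (-0.91, adjusted p = 0.0381) and *prss27* (-1.32, adjusted p = 0.0345) fell as well. The basal epidermal factor *tp63* was listed at 4.84, 5.41 and 10.8 and then at 12.2, 13.2 and 22.6, with no overlap between the windows, and missed the threshold (1.11, adjusted p = 0.0572).

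Of 35 genes of paraxial mesoderm and muscle, 10 rose and 3 fell, where 4.47% of all tested genes rose and 16.0% fell, and the median difference was 0.86. The largest differences were those of *actc1*, *tcf15*, *myl1* and *pcdh8l*. *actc1*, cardiac-type actin, which marks the young myotome in *Xenopus*, went from 2.37, 9.56 and 39.7 to 53.4, 122 and 208. *myl1*, a myosin light chain, went from 22.8, 35.4 and 74.3 to 101, 199.7 and 412. *actc1* rose 9.88-fold (log2 difference 3.31 ± 0.83 SE, limma adjusted p = 0.0361) and *myl1* 5.05-fold (2.34 ± 0.54, adjusted p = 0.0332). *tcf15*, a bHLH factor of the somite, went from 0, 0.493 and 1.65 to 3.00, 13.9 and 27.2 (2.91 ± 0.67, adjusted p = 0.033). *pcdh8l*, a protocadherin of the presomitic mesoderm, rose by 2.29 (adjusted p = 0.0316), *meox2* by 1.84 (adjusted p = 0.0447) and *tnni1*, a troponin, by 1.40 (adjusted p = 0.0319).

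The myogenic determination genes were not called. *myf5* climbed through the earlier window, at 484, 639 and 897, and was then listed at 681, 746 and 843, so its windows overlapped (log2 difference 0.21, adjusted p = 0.526). *myod1* was listed at 16.0, 47.4 and 112 and then at 101, 172 and 196 (1.74, adjusted p = 0.0669), and the 5 h value lay under the 4.5 h value. The later member of that family, *myf6*, rose from 0.141, 0.297 and 1.02 to 1.78, 2.11 and 3.91 (1.28, adjusted p = 0.0345). The presomitic factor *msgn1* was not called (0.49, adjusted p = 0.216). The 3 members that fell were T-box genes of the early mesoderm: *t* (brachyury) went from 302, 280 and 412 to 250.4, 147 and 130.3 (-0.95 ± 0.28 SE, adjusted p = 0.0462), *eomes* from 109, 80.5 and 80.8 to 49.6, 31.6 and 18.8 (-1.49, adjusted p = 0.032) and *vegt* from 381, 371 and 299.7 to 187, 132 and 82.3 (-1.45, adjusted p = 0.0314). None of these 3 was called lower with a median ratio of 1 or with spike-in scaling.

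In lateral and ventral mesoderm 7 of 33 members rose and 3 fell, where 4.47% of all tested genes rose and 16.0% fell, with a median difference of 0.34, and 5 risen members were stable to scaling. *hand1*, a bHLH factor of the lateral plate and heart, was listed at 0, 0.162 and 1.58 and then at 7.46, 14.2 and 40.2. It rose 12.1-fold (log2 difference 3.59 ± 0.58 SE, limma adjusted p = 0.0314). *lmo2*, a LIM-only partner of blood and endothelial factors, went from 2.204, 5.80 and 13.2 to 22.8, 33.2 and 42.8 (2.28 ± 0.50, adjusted p = 0.0319). *isl1*, a LIM-homeodomain factor, went from 0.552, 2.88 and 6.16 to 11.6, 17.3 and 23.1 (2.34, adjusted p = 0.0322), and *spib*, an ETS factor of myeloid cells, from 0.575, 0.253 and 2.52 to 4.71, 8.80 and 13.6 (2.29, adjusted p = 0.0314). *tbx3* rose by 1.79 (adjusted p = 0.0314) and *pax8*, a kidney factor, by 0.86 (adjusted p = 0.0462).

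Ventral regulators downstream of BMP were not called. *ventx2.1* was listed at 1231, 1469 and 1993 and then at 1464, 1326 and 945 (log2 difference -0.32, adjusted p = 0.338), *gata2* had a difference of 0.21 (adjusted p = 0.556) and the heart factor *nkx2-5* of 1.11 (adjusted p = 0.0551). Of the genes of the intermediate mesoderm, *osr2* fell by 0.68 (adjusted p = 0.0389), and of the 2 records named *osr1* 1 fell (-0.92, adjusted p = 0.0492) and the other was not called (-0.80, adjusted p = 0.0868), and *wnt8a*, a Wnt ligand of the ventrolateral margin, fell by 0.90 (adjusted p = 0.0472).

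Organizer and early mesendoderm genes were among those that fell. In the notochord and organizer list 8 of 29 members fell and 2 rose, against 16.0% and 4.47% of all tested genes, with a median difference of -0.29, which became 0.02 with a median ratio of 1. *gsc*, the homeodomain factor of the organizer and head mesoderm, went from 191, 106 and 96.5 to 43.5, 36.1 and 44.9 (log2 difference -1.57 ± 0.28 SE, limma adjusted p = 0.0314). *sia1*, which activates *gsc* in the blastula, went from 5.41, 2.00 and 2.55 to 0.409, 0.148 and 0.0677 (-1.77, adjusted p = 0.0314). *dand5*, a secreted Nodal antagonist later used in left-right patterning, went from 40.4, 15.1 and 15.8 to 4.28, 2.65 and 1.70 (-2.58 ± 0.42, adjusted p = 0.0314). These 3 genes were stable to scaling.

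The list also holds secreted antagonists made by the organizer. *dkk1*, a Wnt antagonist, went from 146, 155 and 159 to 94.7, 85.8 and 90.6 (log2 difference -0.76, adjusted p = 0.0319), and *frzb*, another, from 182, 165 and 198 to 134, 64.1 and 42.9 (-1.32, adjusted p = 0.0415). The BMP antagonists *chrd* and *nog* had differences of -0.04 (adjusted p = 0.914) and -0.03 (adjusted p = 0.926). *chrd* was listed at 78.5, 114 and 141 and then at 108, 104 and 105, within its earlier range. *shh*, the notochord and floor plate signal, was listed at 16.1, 21.4 and 39.6 and then at 33.9, 38.4 and 48.3 (0.71, adjusted p = 0.138). The members that rose were *ntn1*, netrin (1.31, adjusted p = 0.0351), and *col9a1*, a cartilage-type collagen (0.99, adjusted p = 0.0438).

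In the endodermal list 7 of 27 members fell and 1 rose, against 16.0% and 4.47% of all tested genes, with a median difference of -0.49 against -0.35. *mixer*, a homeodomain factor of the mesendoderm, was listed at 685, 429.5 and 438 and then at 135, 72.2 and 36.6. *mix1* was listed at 97.3, 49.2 and 45.2 and then at 17.2, 9.097 and 3.08. In both genes every later sample lay below every earlier one, and both were stable to scaling. *mixer* fell 7.03-fold (log2 difference -2.81 ± 0.43 SE, limma adjusted p = 0.0314) and *mix1* 6.73-fold (-2.75 ± 0.53, adjusted p = 0.0314). *bix1.1*, of the same family, fell by 2.16 (adjusted p = 0.0319) and *hhex*, an anterior endoderm factor, by 1.73 (adjusted p = 0.041).

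The SOX and GATA factors that maintain endoderm were not called. *sox17a* was listed at 263, 291 and 418 and then at 284, 271 and 238 (log2 difference -0.27, adjusted p = 0.359), *gata4* had a difference of -0.77 (adjusted p = 0.113) and *foxa2* of 0.38 (adjusted p = 0.479). The member that rose was *darmin*, which went from 196, 355 and 312 to 518, 433 and 519 (0.81, adjusted p = 0.0484), and it was not called with spike-in scaling (adjusted p = 0.184).

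**Figure D4:**
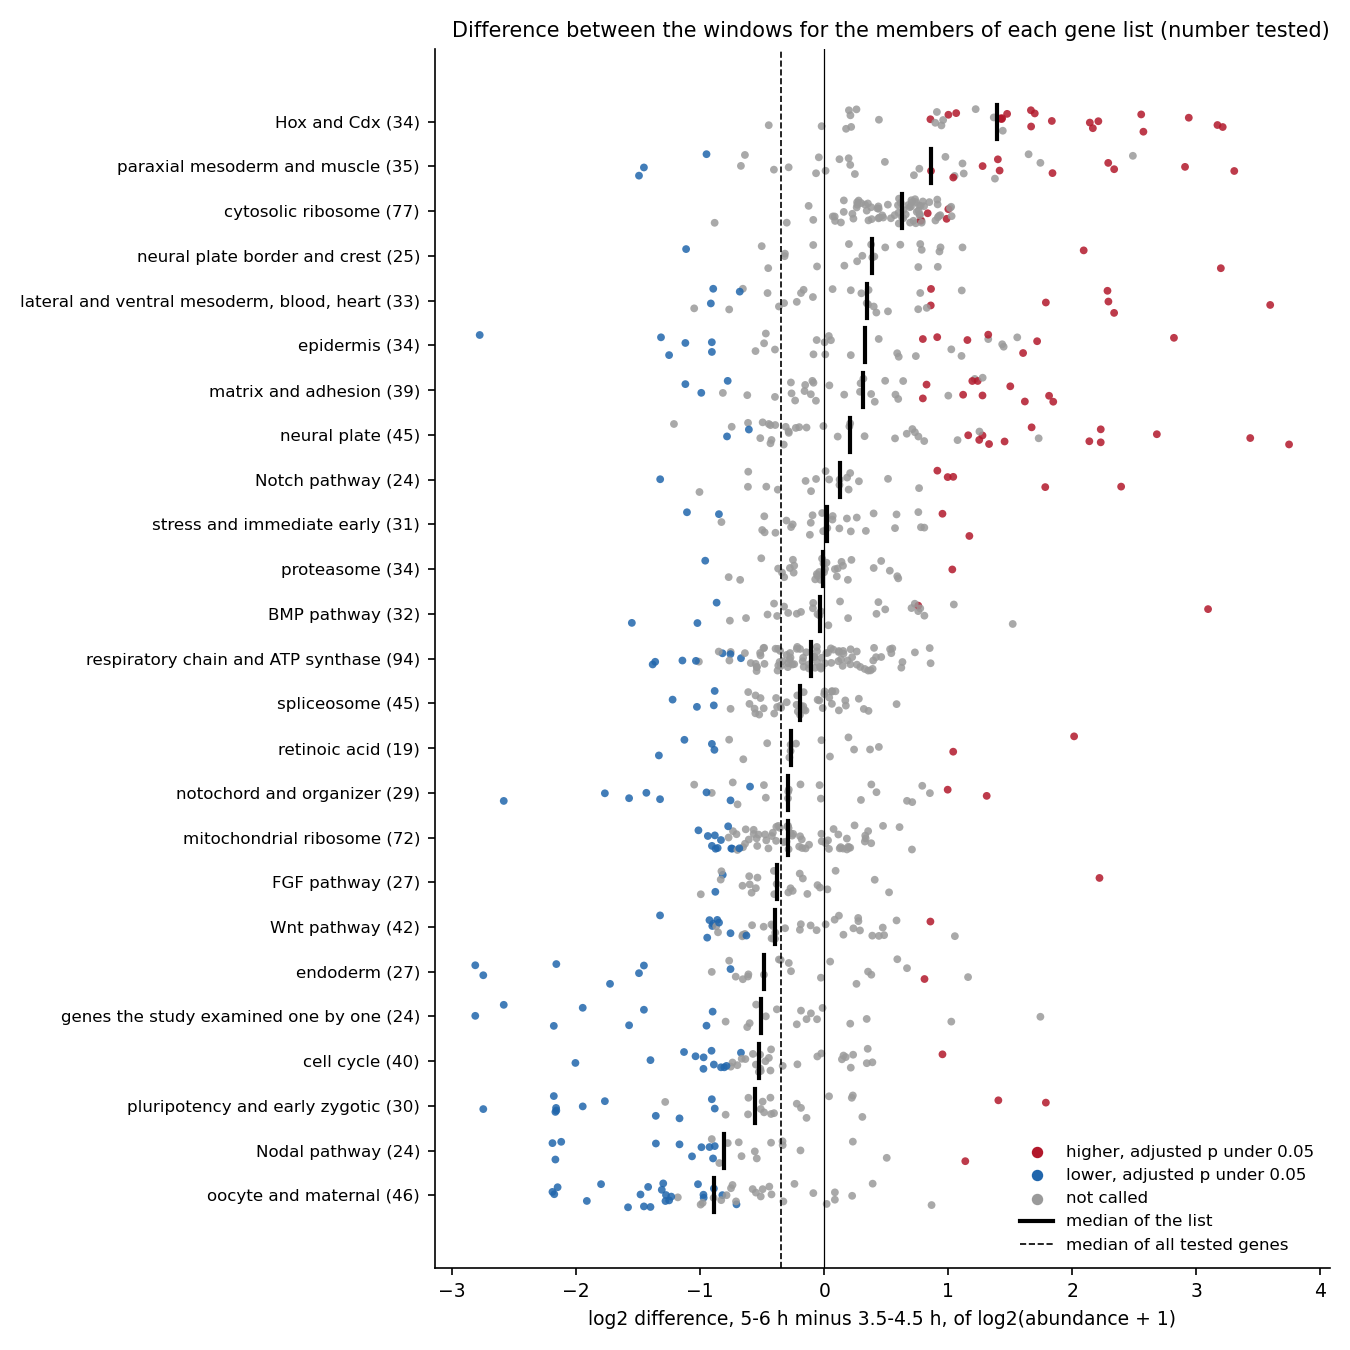
Log2 difference between the windows for every tested member of 25 gene lists (points; red called higher, blue called lower, grey not called), with the median of each list (thick line) and of all tested genes (dashed line at -0.35). The number in parentheses is the number of members tested. Hox and Cdx genes have the highest median, 1.39, and oocyte and maternal genes the lowest, -0.89.

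Nodal ligands signal through activin receptors, EGF-CFC co-receptors and Smad2/3 with *foxh1*, and induce mesoderm and endoderm in the blastula. Of 24 members tested 10 fell and 1 rose, against 16.0% and 4.47% of all tested genes, with a median difference of -0.81, which was -0.71 with spike-in scaling and -0.41 with a median ratio of 1. Among the ligands, *nodal2* went from 10.4, 3.95 and 2.35 to 0.633, 0.0779 and 0.181 (log2 difference -2.17 ± 0.42 SE, limma adjusted p = 0.0314) and *nodal1* from 5.83, 2.69 and 1.67 to 0.908, 0.686 and 0.847 (-1.17, adjusted p = 0.0451). *gdf1*, the maternal partner of Nodal, went from 22.7, 13.4 and 18.2 to 5.01, 2.85 and 1.95 (-2.19 ± 0.33, adjusted p = 0.0314). *nodal2* and *gdf1* were stable to scaling. *nodal6* (-0.88, adjusted p = 0.042) and *gdf3* (-0.90, adjusted p = 0.0338) fell, while *nodal* itself was listed at 12.8, 11.0 and 8.90 and then at 13.4, 7.15 and 8.37 (-0.19, adjusted p = 0.632). Another record named *nodal* went from 12.8, 3.24 and 2.70 to 0.972, 1.298 and 0.0948 (-1.81, adjusted p = 0.0429), and is not in the list, which holds the record of the higher later level where a symbol stands on more than 1.

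The antagonist *lefty*, a direct Nodal target, went from 124, 88.9 and 92.8 to 57.2, 37.99 and 26.5 (log2 difference -1.36, adjusted p = 0.0316). The co-receptors differed in direction: *tdgf1.3* went from 166, 116 and 61.8 to 55.2, 19.9 and 11.7 (-2.12 ± 0.54 SE, adjusted p = 0.0371), whereas *tdgf1.2* went from 8.74, 10.1 and 17.4 to 25.0, 23.5 and 32.4 (1.14 ± 0.29, adjusted p = 0.0372). The receptors *acvr2a* (-1.07, adjusted p = 0.0361) and *acvr1b* (-0.93, adjusted p = 0.0482) and the co-repressor *ski* (-0.99, adjusted p = 0.0331) fell. The transducers *smad2* (-0.34, adjusted p = 0.254) and *foxh1* (0.23, adjusted p = 0.463) were not called.

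In the BMP pathway, which patterns the ventral side, 2 of 32 members rose and 3 fell, against 4.47% and 16.0% of all tested genes, so the share that rose was near that of all genes and the share that fell below it. The median difference was -0.03, or 0.06 with spike-in scaling and 0.46 with a median ratio of 1. The largest difference was that of *tll2*, which the list holds as a member of the tolloid family of chordin-cleaving proteases. It was listed at 0.426, 1.25 and 1.55 and then at 3.41, 21.2 and 51.1 (log2 difference 3.09 ± 0.77 SE, limma adjusted p = 0.0357, and 0.0512 with a median ratio of 1). Another record named *tll2* was listed at 12.1, 12.43 and 13.2 and then at 10.3, 8.09 and 7.32 (-0.52, adjusted p = 0.131). *id2*, a BMP target, rose by 0.76 (adjusted p = 0.0463). The ligand *bmp7.2* went from 354, 183 and 218 to 179, 52.9 and 57.6 (-1.55, adjusted p = 0.0471) and *smad1*, a transducer, from 275, 256 and 203 to 147, 136 and 117 (-0.87, adjusted p = 0.0319). *bmp4* (-0.46, adjusted p = 0.162) and *bmp2* (-0.05, adjusted p = 0.89) were not called.

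In the Wnt pathway 9 of 42 members fell and 1 rose, against 16.0% and 4.47% of all tested genes, so both shares were near those of all genes. The median difference of -0.40, against -0.35 over all genes, was 0.09 with a median ratio of 1. None of its members was stable to scaling. The members that fell were the ligand *wnt8a*, the co-receptor *lrp6* (log2 difference -0.86, limma adjusted p = 0.0473), the secreted antagonists *dkk1*, *frzb*, *sfrp2* (-0.94, adjusted p = 0.036) and *notum* (-0.90, adjusted p = 0.0357), and the cytoplasmic and nuclear components *axin1* (-0.93, adjusted p = 0.0433), *dvl3* (-0.85, adjusted p = 0.0466) and *tcf7l1* (-0.63, adjusted p = 0.0481). The target *cdx4* was the member that rose.

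In the FGF pathway 1 of 27 members rose and 2 fell, against 4.47% and 16.0% of all tested genes, and the median difference was -0.38, or 0.10 with a median ratio of 1. The ligand *fgf3* went from 0.919, 5.62 and 7.04 to 12.43, 20.1 and 35.4 (log2 difference 2.22 ± 0.57 SE, limma adjusted p = 0.0371) and was stable to scaling. The ligand *fgf20* (-0.82, adjusted p = 0.0399) and the receptor *fgfr2* (-0.88, adjusted p = 0.0487) fell. *fgf8* was listed at 129.6, 67.2 and 98.8 and then at 87.9, 53.0 and 78.6 (-0.41, adjusted p = 0.31), and its windows overlapped.

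Retinoic acid is made by dehydrogenases, broken down by Cyp26 enzymes and read by nuclear receptors. Of 19 members tested 2 rose and 4 fell, against 4.47% and 16.0% of all tested genes, with a median difference of -0.27, or 0.22 with a median ratio of 1. No member was stable to scaling, and none was called lower with a median ratio of 1 or with spike-in scaling. *cyp26a1*, the degrading enzyme, went from 806, 767 and 673 to 481, 401 and 326 (log2 difference -0.91 ± 0.20 SE, limma adjusted p = 0.0319) and *rdh10*, which makes retinaldehyde, from 215, 203 and 214 to 135, 93.4 and 69.9 (-1.13, adjusted p = 0.0319). *crabp2*, a binding protein, went from 69.4, 147 and 158 to 219, 236 and 276 (1.04, adjusted p = 0.0479). *nr2f5*, an orphan receptor, went from 0.749, 1.39 and 3.09 to 3.35, 10.6 and 21.2 (2.01, adjusted p = 0.0436).

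Notch signalling is read out by hairy and enhancer-of-split (*hes*) repressors. Of 24 members tested 5 rose and 1 fell, against 4.47% and 16.0% of all tested genes, with a median difference of 0.12. *hes8* went from 2.61, 7.75 and 11.3 to 23.0, 33.6 and 66.6 (log2 difference 2.39 ± 0.51 SE, limma adjusted p = 0.0316) and *hes5.2* from 0.691, 0.452 and 0.691 to 2.60, 3.402 and 9.64 (1.78 ± 0.39, adjusted p = 0.0319). Both were stable to scaling. *hes6.2* (1.04, adjusted p = 0.0403), *hes9.1* (0.99, adjusted p = 0.0455) and the ligand *jag1* (0.91, adjusted p = 0.0423) rose, and the co-activator *maml1* fell by 1.32 (adjusted p = 0.0319). The ligand *dll1* was not called (0.20, adjusted p = 0.459).

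Pluripotency and early zygotic genes are those active in the blastula before the germ layers are set. Of 30 members tested 11 fell and 2 rose, against 16.0% and 4.47% of all tested genes, and the median difference was -0.56, or -0.47 with spike-in scaling and -0.12 with a median ratio of 1. The 3 *pou5f3* genes, frog relatives of the mammalian pluripotency factor Oct4, differed in size. *pou5f3.2* was listed at 1311, 989 and 1158 and then at 531, 320 and 153. *pou5f3.3*, the maternal copy, was listed at 136, 64.7 and 67.8 and then at 27.8, 18.6 and 10.7. *pou5f3.1* was listed at 1330, 1528 and 2306 and then at 1198, 1055 and 708. In each gene the later samples were below the earlier ones. *pou5f3.2* fell 3.86-fold (log2 difference -1.95 ± 0.40 SE, limma adjusted p = 0.0314, and 0.0522 with a median ratio of 1) and *pou5f3.3* 4.54-fold (-2.18 ± 0.39, adjusted p = 0.0314), while *pou5f3.1* missed the threshold (-0.80 ± 0.27, adjusted p = 0.0671).

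The *ventx* genes, which hold cells uncommitted in *Xenopus*, were not called. *ventx1.2* had a difference of -0.19 (adjusted p = 0.536) and *ventx2.2* of -0.22 (adjusted p = 0.452). *gs17*, a gene expressed in the gastrula, went from 325, 195 and 109 to 67.2, 40.6 and 26.5 (-2.16 ± 0.44 SE, adjusted p = 0.0314), and *prdm14*, a chromatin regulator, from 82.6, 74.1 and 99.3 to 52.4, 34.7 and 18.6 (-1.36, adjusted p = 0.0368). The members that rose were *tbx3* and the zinc-finger gene *znf593*, which went from 40.5, 70.8 and 58.5 to 111, 124 and 234 (1.40, adjusted p = 0.0331).

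RNAs of the oocyte had the lowest median of the lists. Of 46 members tested 22 fell and 0 rose, against 16.0% and 4.47% of all tested genes, with a median difference of -0.89, or -0.80 with spike-in scaling and -0.44 with a median ratio of 1. Translational regulators, meiotic cell-cycle genes and germ plasm RNAs were among those that fell. *zar1l*, a maternal RNA-binding protein, went from 961, 578 and 412 to 253, 179 and 118 (log2 difference -1.80 ± 0.36 SE, limma adjusted p = 0.0314). *wee2*, an oocyte kinase, went from 62.1, 28.4 and 35.0 to 13.7, 8.32 and 4.595 (-2.15 ± 0.41, adjusted p = 0.0314). *patl2*, a translational repressor of the oocyte, fell by 1.91 (adjusted p = 0.0314) and *mos*, the kinase of meiotic arrest, by 1.58 (adjusted p = 0.0316). The embryonic linker histone *h1foo* went from 4065, 1962 and 1801 to 1381, 868 and 834 (-1.28, adjusted p = 0.0388).

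Among the germ plasm RNAs, *nanos1* went from 15.4, 7.39 and 10.8 to 4.55, 2.63 and 2.71 (log2 difference -1.48, adjusted p = 0.0319), *grip2* fell by 1.23 (adjusted p = 0.0314) and *dnd1* by 1.25 (adjusted p = 0.0454). *ddx4*, the germ-cell helicase vasa, was listed at 72.9, 61.6 and 65.3 and then at 80.3, 55.2 and 79.1 (0.08, adjusted p = 0.78). *dazl* was not called (-0.58, adjusted p = 0.191).

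Cyclin genes fell by different amounts, and *ccna1*, the cyclin A of the oocyte and early embryo, had the largest fall of those named here. It went from 96.9, 53.7 and 36.6 to 16.6, 12.1 and 8.46 and declined at every time point (log2 difference -2.18 ± 0.38 SE, limma adjusted p = 0.0314). *ccnb1* went from 89.6, 51.6 and 35.5 to 20, 11.9 and 8.88 (-2.01 ± 0.39, adjusted p = 0.0314). *ccna2*, the somatic cyclin A, went from 951, 872 and 713 to 567, 401 and 343 (-0.97 ± 0.23, adjusted p = 0.0336). These differences were not tested against each other. Over the cell-cycle list 12 of 40 members fell and 1 rose, against 16.0% and 4.47% of all tested genes, with a median difference of -0.52, or -0.06 with a median ratio of 1. *ccne1* (-1.40, adjusted p = 0.0314), *cdt1* (-1.04, adjusted p = 0.0399) and *cdc20* (-0.83, adjusted p = 0.042) fell. *cdkn1a*, an inhibitor of cyclin-dependent kinases, went from 2.68, 2.47 and 2.31 to 5.75, 4.22 and 7.67 (0.95, adjusted p = 0.0415), and *pcna* and *cdk1* were not called (0.15 and 0.35, adjusted p = 0.603 and 0.219).

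Most ribosomal protein genes had a small difference above 0 that was not called. Of the 77 genes of the cytosolic ribosome 4 rose, *rpl5*, *rpl31* and *rps24* among them, and 0 fell, so the share that rose was near the 4.47% of all tested genes. A difference above 0 was found for 73 of the 77, against 28.5% of all tested genes, and 70 had their highest control value at 5 to 6 h, against 2723 of the 15514. The median difference was 0.63, or 0.72 with spike-in scaling and 1.12 with a median ratio of 1. The summed abundance of the list was 58580, 87620 and 62840 and then 78570, 103400 and 129200. The 4 h sum thus lay above the 5 h sum, and the windows overlapped. Members measured in the same samples are not independent of each other. *rpl31* was listed at 568, 828 and 563 and then at 1075, 1100 and 1743 (log2 difference 0.99 ± 0.25 SE, limma adjusted p = 0.037). *rps24* was listed at 254, 392 and 249 and then at 470.1, 510.4 and 831 (1.00 ± 0.27, adjusted p = 0.0413). In spike-in scaling none of the 77 was called. The exceptions to the upward direction were *rplp0* (-0.30, adjusted p = 0.293), *rps27* (-0.88, adjusted p = 0.0941), *rpl22l1* (-0.13, adjusted p = 0.769) and *rplp1* (-0.09, adjusted p = 0.767).

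Genes of mitochondria and of the general machinery had medians closer to that of all genes, and the sign of each of these medians changed with a median ratio of 1. Of 72 mitochondrial ribosome genes 11 fell and 0 rose, a share that fell near the 16.0% of all tested genes (median -0.30, and 0.19 with a median ratio of 1), and *mrps11* was 1 of them (log2 difference -0.88, limma adjusted p = 0.0316). Of 94 genes of the respiratory chain and ATP synthase 7 fell and 0 rose, below the 16.0% of all tested genes that fell (median -0.11 and 0.38), among them *cox4i2* (-1.14, adjusted p = 0.0316). Of 34 proteasome genes 1 rose, *psmc2* (1.03, adjusted p = 0.0454), and 1 fell, *psmd5* (-0.96, adjusted p = 0.0371), against 4.47% and 16.0% of all tested genes. The proteasome medians were -0.01 and 0.48, and 0.08 with spike-in scaling. Of 45 spliceosome genes 4 fell and 0 rose (median -0.20 and 0.30), against 16.0% and 4.47% of all tested genes. The largest fall there was that of *srsf5*, a splicing factor, from 7542, 7716 and 9232 to 4515, 3331 and 2805 (-1.22 ± 0.23 SE, adjusted p = 0.0314).

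Among genes of the matrix and of adhesion, which cells use during morphogenesis, 10 of 39 rose and 3 fell, where 4.47% of all tested genes rose and 16.0% fell, with a median difference of 0.31. *sparc*, a collagen-binding matrix protein, went from 4.73, 8.32 and 11.4 to 18.2, 29.4 and 51.6 (log2 difference 1.85 ± 0.42 SE, limma adjusted p = 0.0322). *lama1*, a laminin chain of basement membranes, went from 0.805, 2.00 and 4.65 to 7.90, 8.20 and 15.2 (1.81 ± 0.44, adjusted p = 0.0349). The classical cadherins were *cdh2*, of the neural plate, which rose from 2.77, 5.42 and 11.3 to 14.3, 17.6 and 22.6 (1.499, adjusted p = 0.0423), and *cdh1*, of the epidermis, which was listed at 25.4, 37.97 and 84.3 and then at 90.2, 84.1 and 89.3 (1.00, adjusted p = 0.0863). *fn1*, fibronectin, was not called (0.29, adjusted p = 0.261).

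Stress and immediate early genes had a median difference of 0.02, with 2 of 31 higher and 2 lower, against 4.47% and 16.0% of all tested genes. *hspa5*, the chaperone of the endoplasmic reticulum, went from 72.8, 83.4 and 113 to 181, 179.5 and 244 (log2 difference 1.17 ± 0.23 SE, limma adjusted p = 0.0314, and 0.0696 with spike-in scaling). The immediate early gene *fos* fell (-1.11, adjusted p = 0.0478), and the cytosolic heat-shock gene *hsp70* was listed between 0.243 and 1.28 in the 6 samples (0.33, adjusted p = 0.278).

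Across the whole table, the 12 genes with a symbol that rose most, among those with a mean abundance of at least 5 in the higher window, were *rax*, *spon2*, *dnase1l3*, *hand1*, *pax6*, *anxa9*, *mylpf*, *actc1*, *hoxc6*, *c3*, *fam3d* and *hoxb8*. All 12 had their highest control value at 6 h, and all except *rax* were stable to scaling. *spon2*, a secreted matrix protein of the spondin family, was listed at 0, 0.480 and 1.32 and then at 4.74, 17.7 and 73.1 (log2 difference 3.73 ± 0.80 SE, limma adjusted p = 0.0316). *dnase1l3*, a secreted nuclease, went from 0.268, 3.51 and 12.5 to 28.2, 57.4 and 83.5 (3.62 ± 0.77, adjusted p = 0.0316). *mylpf*, a fast-muscle myosin light chain, went from 0.121, 0.671 and 1.83 to 4.83, 18.3 and 47.1 (3.33 ± 0.69, adjusted p = 0.0314). *anxa9*, an annexin, rose by 3.41 and *fam3d*, a secreted protein, by 3.19 (adjusted p = 0.0314 for both).

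The 12 that fell most, by the same rule, were *gramd3*, *mixer*, *gmnc*, *mix1*, *ctdnep1*, *dand5*, *ethe1*, *immp1l*, *rasd1*, *cenpa*, *birc5.1* and *cmtm8*. All except *gramd3*, *cenpa* and *cmtm8* were stable to scaling. Those genes missed the threshold with a median ratio of 1 (limma adjusted p = 0.052, 0.0651 and 0.0519). *gramd3* went from 115, 38.04 and 29.9 to 17.04, 3.51 and 2.84 (log2 difference -2.93 ± 0.66 SE, limma adjusted p = 0.0322). *ctdnep1*, a phosphatase of the nuclear envelope, went from 262, 130.3 and 166 to 33.7, 26.3 and 23.0 (-2.66 ± 0.28, adjusted p = 0.0187). *cenpa*, the centromeric histone, went from 65.4, 21.5 and 12.7 to 8.83, 3.23 and 3.02 (-2.31 ± 0.58, adjusted p = 0.0362), and *birc5.1*, a survivin of the chromosomal passenger complex, from 384, 211 and 179.5 to 84.3, 49.0 and 29.2 (-2.28 ± 0.41, adjusted p = 0.0314). The mitochondrial genes *ethe1* and *immp1l* fell by 2.55 and 2.43 (adjusted p = 0.0314 for both).

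None of the 5 most abundant genes was called, and the 1 of them with a symbol, *hist1h1t*, a linker histone, was listed at 274900, 275700 and 349700 and then at 207700, 220700 and 160600 (log2 difference -0.62, limma adjusted p = 0.183).

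A few records switched between a level and 0, which in these files can be a failed estimate, so no fold is given. *LOC100496129* was listed at 0 in each earlier sample and at 19.2, 23.6 and 17.6 in the later ones. Among genes called higher, 19 were listed at 0 in all 3 samples of the earlier window, and among genes called lower 14 were listed at 0 in all 3 samples of the later window.

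The hour of the highest control value is described here for the genes that rose and for those that fell. Of the 693 genes that rose, 658 had their highest value in the control course at 5 h or later, against 2723 of the 15514 tested genes, and 601 at 6 h. Of the 2475 genes that fell, 2224 had theirs at 3 h or earlier, and 2005 of these at 1 h or earlier. Only 251 peaked at 3.5 to 4.5 h, *foxd3*, *cmtm8* and *mixer* among them. The samples that decided the calls also set these positions, which are given as a description. Where the windows do not overlap, a fallen gene cannot peak at 5 to 6 h, nor a risen gene at 3.5 to 4.5 h. In the step before, from 2 to 3 h to 3.5 to 4.5 h, 582 of the genes that rose had a difference above 0 and 98 below 0, and 2035 of the genes that fell had a difference below 0 and 440 above 0. Those steps share the 3.5 to 4.5 h samples. Over all tested genes the median difference in the step before was -0.25. Shares over all tested genes were not counted for the early peaks or for these directions.

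Whether the last step differed from the step before it was tested as a contrast over the 9 control samples. Only 5 of the 15514 genes were called (0.0322%), 1 of them higher and 4 lower, and 2689 had an unadjusted p under 0.05. The gene with a higher last step was the second *hoxc9* record. For *gsc* the step before was -0.58 and the last step -1.57, for *mixer* 0.44 and -2.81, and for *pax6* 1.21 and 3.43, and in none of these was the difference between the steps called. For *cyp26a1* the step before was 1.56 and the last step -0.91, a difference that was not called either (adjusted p = 0.199).

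The high K+ embryos gave the same windows in separate samples. The step from 3.5 to 4.5 h to 5 to 6 h took the same direction there for nearly all genes called in control embryos. Of the 693 genes that rose in controls, 691 had a difference above 0 in high K+ embryos, with a median of 1.53, and 40.4% of all tested genes did. Of the 2475 genes that fell, 2451 had a difference below 0, with a median of -0.77, and 59.4% of all tested genes did. The median over all tested genes was -0.13 in high K+ embryos. The high K+ samples of the windows did not overlap, and lay higher at 5 to 6 h, for 630 of the 693 genes (90.9%), against 18.5% of all tested genes. They lay lower for 1787 of the 2475 (72.2%), against 23.7% of all tested genes.

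The median difference of Hox and Cdx genes was 1.64 in high K+ embryos and 1.39 in controls, that of paraxial mesoderm and muscle 1.06 and 0.86, and that of neural plate genes 0.48 and 0.21. It was -0.63 and -0.81 for the Nodal pathway and -0.55 and -0.89 for oocyte and maternal genes. The median of all tested genes was itself -0.13 in high K+ embryos and -0.35 in controls, a shift in the same direction. Whether any list moved beyond that shift was not tested. *pax6* had a difference of 3.84 in high K+ embryos and 3.43 in controls, *hand1* of 3.42 and 3.59, *mixer* of -2.59 and -2.81 and *ccna1* of -2.29 and -2.18. The interaction of window and condition was called for 1 of the 15514 genes (0.00645%), an unnamed record listed at 0 in each later high K+ sample, with 292 at an unadjusted p under 0.05. Change within each window enters the spread of this test, so few calls do not show that the steps were equal. The authors fitted the nucleotide correction separately in each condition, and its part in these differences was not tested.

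**Figure D5:**
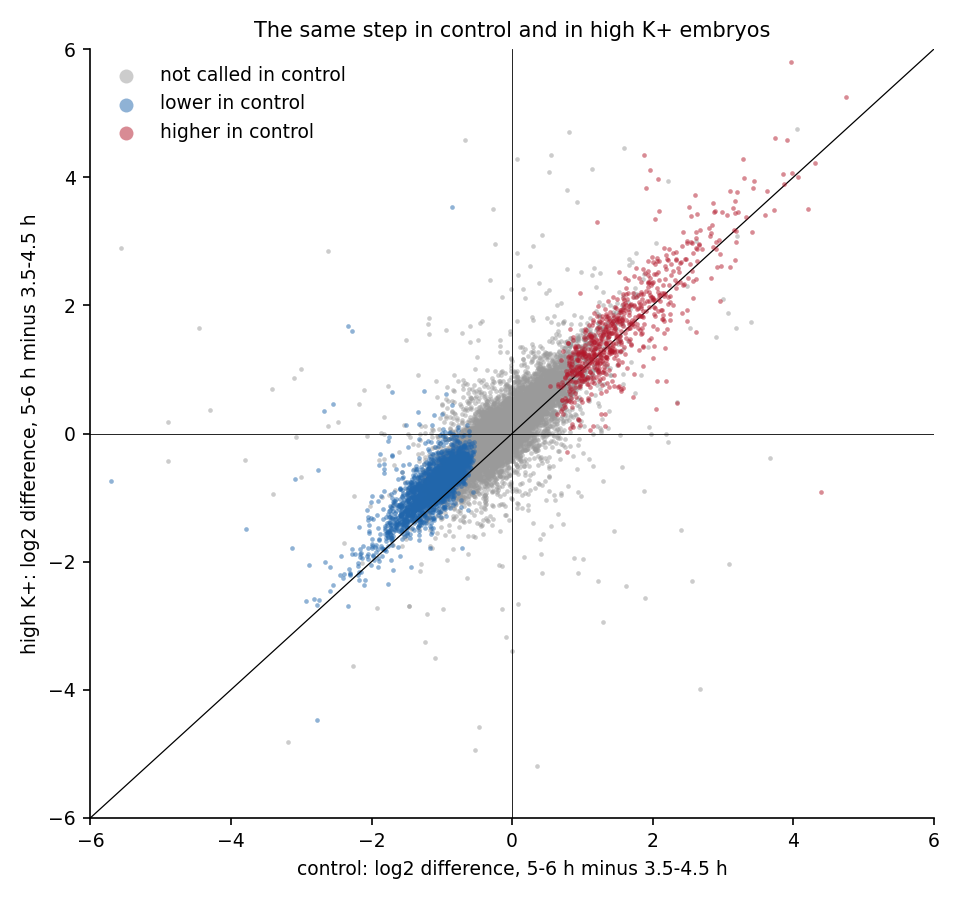
Log2 difference of each tested gene between 5 to 6 h and 3.5 to 4.5 h in control embryos (horizontal axis) and in high K+ embryos (vertical axis), with genes called higher in control in red, called lower in blue and not called in grey. The diagonal marks equal differences, 9 genes lie outside the axes, and 691 of the 693 red points lie above 0 on the vertical axis.

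A selection of genes that the study stained, depleted or otherwise examined one by one had a median difference of -0.51 in these control samples. The selection does not hold every gene that was stained. Of 24 tested, 8 were lower and 0 higher, against a median of -0.35 and 16.0% lower over all tested genes. With a median ratio of 1 the median of these genes was -0.07, with 4 lower and 1 higher. The 8 lower in the deposited values were *t*, *vegt*, *mixer*, *gsc*, *dand5*, *pou5f3.2*, *pou5f3.3* and *atf1* (log2 difference -0.90, limma adjusted p = 0.0351). *foxi1*, an ionocyte factor, was listed at 23.2, 9.68 and 14.1 and then at 23.8, 29.7 and 42.2 (1.02, adjusted p = 0.063). *mtor*, the kinase of the pathway that the study followed, was listed at 15.5, 11.4 and 18.8 and then at 15.3, 6.08 and 8.98 (-0.60, adjusted p = 0.217).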

How the data were processed

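RNA was sequenced by the authors as stranded 100 bp paired-end libraries with spike-in RNAs, aligned with STAR, quantified with RSEM, and corrected with a linear model of dinucleotide content fitted to the spike-ins separately in each condition. The deposited values are this corrected abundance signal, summed over isoforms. The paper left out genes that its correction altered strongly, which was not done here. They are not counts, and sequencing depth is unknown, so no counting interval is given. Each condition is 1 time course with no biological replicate.

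Genes with an abundance above 0.4 in at least 3 of the 6 samples were kept (15514 of 34192), transformed as log2(abundance + 1), and tested with limma (version 3.58.1, R 4.3.3, trend, two-sided) with Benjamini-Hochberg adjustment. The step against the preceding step, and the interaction with high K+, were contrasts of the same kind. The fitting code was tested on simulated data. The genes named are the 12 with a symbol and the largest called difference in each direction, the first members and the most changed called members of each gene list, the genes the study examined, the 5 most abundant genes, the 5 with the lowest adjusted p in the other contrasts, and records that switched between under 1 and above 5. Further list members were added where a group is described one by one, some after their values were seen. The comparison and the lists were chosen with earlier results of these data known. Tried as alternatives were scaling, pseudocount, filter, trend, slope, a shared spread, a fold minimum and leaving out each sample. A few members of the lists are not reported here by name.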

Additional observations from a re-analysis of the deposited data

Results flagged for a closer look

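The last step differed from the step before it in 5 genes by the limma contrast over the control samples. The record gene15650 was listed at 227700, 121500 and 139400 at 3.5, 4 and 4.5 h and at 0 at 5, 5.5 and 6 h (adjusted p = 8.59e-08 for the difference between the steps). The record LOC105947446 was listed at 5.204, 5.48 and 2.15 and then at 0 in each sample (adjusted p = 0.00464), and the second *hoxc9* record at 0 in each earlier sample and then at 5.303, 5.34 and 3.72 (adjusted p = 0.0226). For these 3 records the test rests on listed values of 0, which can be failed estimates. LOC105948480 was listed at 27.5, 42.0 and 37.5 and then at 32.1, 44.8 and 43.2, after values of 0 in each sample at 2 to 3 h, so its call (adjusted p = 0.0015) also rests on listed values of 0. The record gene14908 was listed at 83.6, 86.7 and 94.8 and then at 26.0, 24.6 and 24.8 (adjusted p = 0.004). Its high K+ values were 40.77, 43.8 and 35.55 and then 0, 66.96 and 6.657, so its windows overlapped in that course.

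The step differed between conditions for 1 record, gene14857, by the interaction test (adjusted p = 0.00298). Its control values were 8.75, 17.7 and 10.3 and then 23.8, 13.1 and 11.5, and its high K+ values were 19.2, 54.9 and 41.5 and then 0 in each sample, so this call too rests on listed values of 0.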

How the results depend on the processing

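The number of genes higher at 5 to 6 h (693) was 459 with spike-in scaling, 3 with no filter on low values, 1464 when a slope over the 6 hours was tested, 1104 with the spread taken from all windows, and 2 to 962 when 1 sample was left out. The number lower (2475) was 314 with a median ratio of 1, 228 with spike-in scaling, 889 with totals under 10000 made equal, 3 with no filter, 4039 as a slope, 1422 with a minimum log2 difference of 1, and 5 to 4001 when 1 sample was left out. The count of genes whose last step differed from the preceding step (5) was 3 with spike-in scaling, 2 with a pseudocount of 10, and 4 to 14 when 1 sample was left out. The interaction with high K+ (1 gene) was called for 0 genes with a pseudocount of 10 and for 1 to 3 when 1 sample was left out.

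With the time point as a replicate block the interaction was called for 2 genes. Deviations of same-hour samples correlated at -0.0164 to 0.384, and at each hour except 5.5 h the same-hour sample correlated best. The main fit nevertheless left the block out. With it 644 genes had an unadjusted limma p under 0.05, and without it 292. Of the 141 called genes picked by rule, 74 stayed called with a median ratio of 1, 72 with spike-in scaling, 105 with a minimum log2 difference of 1 and 5 with no filter. None reversed in any alternative run. However, where the windows do not overlap, neither a left-out sample nor another pseudocount, filter, trend or fold minimum can reverse a gene. The cause of the changes in these counts was not tested. The absence of biological replicates and the unknown depth limit every call.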
